A study of Mus musculus with 8 samples.

Results

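The genes described are 10 glutathione S-transferases in mouse liver. They were Gsta1, Gsta2, Gm3776, Gsta3 and Gsta4 of the alpha class, Gstm1, Gstm2 and Gstm3 of the mu class, Gstp1 of the pi class, and Gstt3 of the theta class. They were 10 of 19267 genes in the count table, and 10 of 10 passed the filter on low counts. The family was chosen by its measured counts, namely the large difference of Gsta1 and Gm3776 between alcohol-fed and control-fed livers, so the diet values of the 10 genes are given as a description without a test.

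Liver RNA was sequenced from male C57BL/6 mice, 9 weeks old, in 8 libraries. WT mice (labelled wild type and, per the study's methods, carrying Cre) were compared with Elf4-/- mice, which are Elf4fl/fl-Villin-Cre animals. Villin-Cre acts in intestinal epithelium, so the liver itself keeps the gene for the transcription factor ELF4. Feeding began at 6 weeks of age and lasted 21 days. The Lieber-DeCarli liquid diet held 5% (w/v) alcohol in the EtOH groups, and maltose dextrin of equal energy took its place in the Control groups. Each group had 2 libraries, and the groups are called WT-Control and WT-EtOH in WT mice and Elf4-/--Control and Elf4-/--EtOH in the others. The diet and genotype contrasts below share these groups, so they are not independent of each other. The labels do not say whether a library was 1 animal or a pool, so the p-values measure the spread between these libraries only, which may be technical.

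Glutathione S-transferases join the thiol of glutathione to reactive electrophiles, which makes them soluble enough for export and further breakdown. The soluble enzymes fall into classes with different preferred substrates, and in rodent liver the alpha, mu and pi classes make up most of the protein. Many of the genes lie in clusters of near-identical copies, and several are textbook targets of NRF2, the transcription factor of the electrophile response, and of CAR and PXR, nuclear receptors that sense foreign compounds.

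The alpha genes Gsta4, Gsta1, Gm3776 and Gsta2 lay in 1 cluster on chromosome 9, at chr9:78182774-78209349, chr9:78230656-78242684, chr9:78257129-78269166 and chr9:78331018-78355788 (build GRCm38, GENCODE M21). Gsta2 was on the minus strand and the other 3 were on the plus strand. Gsta3 was apart from them at chr1:21240589-21265661 on the plus strand, and the antisense gene Gm28836 overlapped it with 0 exonic bases. The mu genes Gstm3, Gstm2 and Gstm1 were neighbours on the minus strand of chromosome 3, at chr3:107963696-107969283, chr3:107981702-107986453 and chr3:108012255-108017973. Gstp1 lay at chr19:4035407-4037985 and Gstt3 at chr10:75774115-75781414, both on the minus strand. All 10 were annotated as protein coding.

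Gsta1, Gsta2 and Gm3776 were almost the same sequence, which bears on how far their counts can be told apart. The coding sequences of Gsta1 and Gm3776 were identical in 667 of 669 aligned bases (99.7%), those of Gsta1 and Gsta2 in 97.6%, and those of Gsta2 and Gm3776 in 97.3%. The first 120 coding bases of Gsta1, Gm3776 and Gsta4 are shown because they set a near-identical copy beside a more distant alpha gene, with capitals where the base differs from Gsta1 (GENCODE M21, 5′ to 3′).
Gsta1: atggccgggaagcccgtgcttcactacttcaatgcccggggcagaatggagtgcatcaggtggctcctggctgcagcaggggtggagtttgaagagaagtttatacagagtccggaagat
Gm3776: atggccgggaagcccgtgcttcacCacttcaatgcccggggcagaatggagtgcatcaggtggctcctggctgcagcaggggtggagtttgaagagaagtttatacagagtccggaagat
Gsta4: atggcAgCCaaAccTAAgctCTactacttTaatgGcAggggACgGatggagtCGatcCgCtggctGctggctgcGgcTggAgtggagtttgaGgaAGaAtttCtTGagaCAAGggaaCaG
In this stretch Gm3776 differed from Gsta1 at 1 base, Gsta2 at 0 bases and Gsta4 at 36 bases. Over whole coding sequences the 10 alpha pairs ranged from 66.0% to 99.7% identity and the 3 mu pairs from 85.0% to 89.4%. The 32 pairs between classes ranged from 47.0% to 53.9%.

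The reads were 150 bases long at each end, so each reference transcript was cut into all windows of 150 bases and searched for letter-for-letter copies in other genes. Such copies held 73.7% of the windows of Gsta1, 77.7% of Gm3776 and 26.8% of Gsta2. For Gsta1 they lay mainly in Gm3776, and for Gsta2 in Gm10639 and Gsta1. Gstp1 shared 41.8% of its windows, with Gstp2 and the pseudogene Gstp-ps, and Gstt3 shared 21.7% with Gm20441, a gene on the same strand that overlaps it over 524 exonic bases. Gstm3 shared 3.44%, with Gm8834. Gsta3, Gsta4, Gstm1 and Gstm2 had no shared window of this length, and their counts are the least exposed to this limit. How the authors' counting treated reads with more than 1 possible gene is not stated in the sources used here, so the separate values of Gsta1, Gsta2 and Gm3776 and the value of Gstp1 are uncertain.

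**Figure D1:**
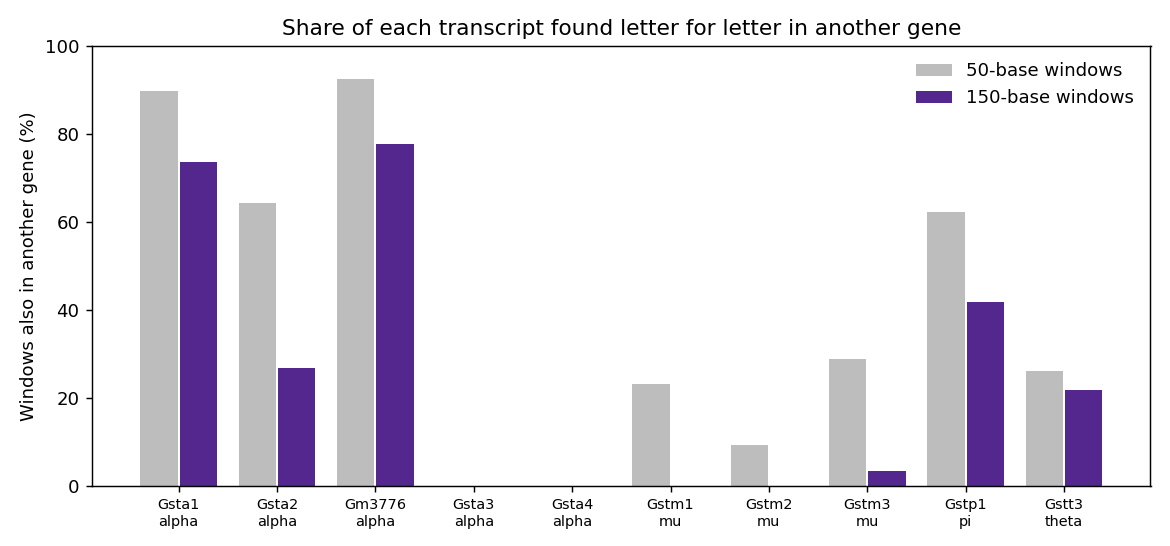
Percent of all 50-base (grey) and 150-base (purple) windows of each gene's reference transcript that also occur in another gene. At 150 bases Gsta1 (73.7%) and Gm3776 (77.7%) stood highest, and Gsta3, Gsta4, Gstm1 and Gstm2 were at 0.

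Upstream windows of the alpha genes are shown because these genes lay high or low in the same libraries (RefSeq, GRCm38.p6, 5′ to 3′, up to 250 bases before the annotated start, printed without bases that GENCODE M21 annotates as exon). Windows were available for 9 of the 10 genes, Gsta4 being the one without. Capitals mark a match to 1 of 4 motifs, which were searched on both strands of all 250 bases, exon bases included. These were the antioxidant response element core TGACNNNGC, the AP-1 site TGANTCA, the STAT site TTCNNNGAA and the TATA box TATAAA. Gsta1 is chr9:78230419-78230655 (plus strand), Gm3776 is chr9:78256879-78257128 (plus), Gsta2 is chr9:78347169-78347395 (minus) and Gsta3 is chr1:21240335-21240584 (plus).
Gsta1: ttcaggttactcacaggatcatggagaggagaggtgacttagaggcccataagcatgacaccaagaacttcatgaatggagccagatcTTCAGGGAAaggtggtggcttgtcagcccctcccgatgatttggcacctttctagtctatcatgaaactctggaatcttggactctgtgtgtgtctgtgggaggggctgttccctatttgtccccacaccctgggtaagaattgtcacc
Gm3776: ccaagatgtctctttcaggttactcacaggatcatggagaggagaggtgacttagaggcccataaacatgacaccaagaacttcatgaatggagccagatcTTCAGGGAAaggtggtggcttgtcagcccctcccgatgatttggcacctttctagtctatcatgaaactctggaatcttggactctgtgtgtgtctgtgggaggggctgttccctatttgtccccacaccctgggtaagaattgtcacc
Gsta2: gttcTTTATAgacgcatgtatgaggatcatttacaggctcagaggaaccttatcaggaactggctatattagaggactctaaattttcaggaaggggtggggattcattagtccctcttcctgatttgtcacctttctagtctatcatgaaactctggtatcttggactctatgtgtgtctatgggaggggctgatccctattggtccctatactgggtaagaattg
Gsta3: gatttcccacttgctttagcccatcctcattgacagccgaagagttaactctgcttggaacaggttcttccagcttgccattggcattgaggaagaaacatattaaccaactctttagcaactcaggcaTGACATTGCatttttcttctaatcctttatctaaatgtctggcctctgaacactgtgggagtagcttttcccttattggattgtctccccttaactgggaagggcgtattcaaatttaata
The windows of Gsta1 and Gm3776 were identical in 236 of 263 aligned columns (89.7%). Most of the other columns were unmatched window ends, since the Gsta1 window ran 13 bases into its annotated exon and the Gm3776 window 0. Both held the same STAT match, TTCAGGGAA, starting 162 and 149 bases before the start, positions that differ by that offset. The STAT letters occurred in 7.18% of 27025 mouse promoter windows of the same length. The Gsta2 window matched that of Gsta1 in 70.5% and held the TATA letters on the opposite strand 246 bases upstream, letters found in 13.0% of all windows. The antioxidant response element core occurred in Gsta3, 121 bases upstream, and in 10.1% of all windows. The window of Gstp1 held an AP-1 match starting 74 bases upstream, against 6.87% of all windows, and all but its first base lay in the 73 bases that GENCODE annotates as exon of Gstp1. Of the other genes, Gstm1 held TATAAA 30 bases before its second annotated start, within the 155 bases annotated as exon of Gstm1, and Gstm2, Gstm3 and Gstt3 held none of the 4 motifs in these windows. A match is only a run of letters and says nothing about binding.

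Library totals ran from 6171051 to 9157362 counts, and 13993 genes were tested. Values below are counts per 1000000 of the TMM-scaled library total (CPM), or fold changes from 1 edgeR model of all 8 libraries. The common biological coefficient of variation was 22.7%. Elf4 counts were low throughout, at 6 and 11 (WT-Control), 27 and 36 (WT-EtOH), 12 and 6 (Elf4-/--Control), and 14 and 34 (Elf4-/--EtOH), and liver counts do not check an intestinal deletion. The 2 Elf4-/--EtOH libraries stood apart from each other more than any other pair. The standard deviation of the log2 difference between replicates over 9398 genes was 0.68 there, against 0.35 to 0.50 in the other groups. The diet values of single members in Elf4-/- mice are therefore given with and without each of them. The hepatocyte genes Alb, Apoa1, Ttr, Cps1, Hnf4a, Fgb and Serpina1c were abundant in every library, with a summed level of 33082 to 77240 CPM. In bulk tissue, fewer cells of a type and less RNA per cell cannot be told apart.

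In the alpha class, Gsta1 went from the edge of detection to a well-expressed gene under alcohol. Gsta1, which encodes an alpha enzyme of low basal level in mouse liver, had 1 and 3 counts in the WT-Control libraries and 259 and 1305 counts in the WT-EtOH libraries. Elf4-/--Control livers gave 4 and 10 counts of it, and Elf4-/--EtOH livers 963 and 60. Every alcohol library lay above every control library. Against a floor of 3 counts per library, Gsta1 was at least 149-fold higher in WT-EtOH than in WT-Control. The bound was 58.9-fold without WT-EtOH replicate 2 and 239-fold without WT-EtOH replicate 1. The fitted log2 fold change in Elf4-/- mice was 6.50 (SE 1.42). It became 3.18 without Elf4-/--EtOH replicate 1 and 7.42 without replicate 2.

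Gm3776, the near-copy of Gsta1, had 0 and 2 counts in the WT-Control libraries and 102 and 281 counts in the WT-EtOH libraries. Elf4-/--Control livers gave 1 count of it each, and Elf4-/--EtOH livers 272 and 15. Both control groups were at the floor and all 4 alcohol libraries were above it. The bounds were at least 37.4-fold higher in WT mice and at least 60.1-fold higher in Elf4-/- mice. The second bound was 5.27-fold without Elf4-/--EtOH replicate 1 and 115-fold without replicate 2, whereas the first lay between 23.2-fold and 51.5-fold when a WT-EtOH library was left out.

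Gsta2 encodes another alpha enzyme of the same cluster. Gsta2 stood at 4.29 and 2.39 CPM in WT-Control, 191 and 277 CPM in WT-EtOH, 6.46 and 6.41 CPM in Elf4-/--Control, and 406 and 82.7 CPM in Elf4-/--EtOH. The 4 alcohol libraries were far above the 4 control libraries, and the lowest of them was Elf4-/--EtOH replicate 2. The log2 fold change was 6.13 (SE 0.73) in WT mice and 5.24 (SE 0.68) in Elf4-/- mice. The latter became 3.68 without Elf4-/--EtOH replicate 1 and 5.96 without replicate 2. When the counts of Gsta1, Gsta2 and Gm3776 were summed so that reads moved among the 3 genes could not matter, WT livers gave 24 and 18 counts on control diet and 1872 and 4309 under EtOH. Elf4-/- livers gave 68 and 54 on control diet and 3785 and 698 under EtOH. The summed log2 fold changes, from all 8 libraries, were 6.43 (SE 0.85) and 5.53 (SE 0.79).

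Gsta4, which favours 4-hydroxynonenal, an aldehyde of lipid peroxidation, also had no overlap between diets. Gsta4 had 7.46 and 15.3 CPM in WT-Control, 142 and 213 CPM in WT-EtOH, 19.5 and 21.8 CPM in Elf4-/--Control, and 179 and 101 CPM in Elf4-/--EtOH. Its log2 fold change was 3.96 (SE 0.40) in WT mice and 2.77 (SE 0.37) in Elf4-/- mice, where it became 2.30 without Elf4-/--EtOH replicate 1 and 3.10 without replicate 2. Gsta3, the main basal alpha enzyme and a detoxifier of aflatoxin epoxide in mice, had the smallest alpha difference. Gsta3 stood at 301 and 371 CPM in WT-Control, 1276 and 1334 CPM in WT-EtOH, 524 and 730 CPM in Elf4-/--Control, and 1543 and 978 CPM in Elf4-/--EtOH. The groups were ordered the same way as for Gsta4, with the Elf4-/--Control libraries above the WT-Control libraries. The log2 fold change was 1.96 (SE 0.31) in WT mice and 1.01 (SE 0.30) in Elf4-/- mice, where it became 0.64 without Elf4-/--EtOH replicate 1 and 1.28 without replicate 2.

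In the mu class, Gstm1 carried most of the signal and Gstm3 had the largest difference. Gstm1, a major mu enzyme of liver, had 760 and 675 CPM in WT-Control, 4466 and 6838 CPM in WT-EtOH, 858 and 1173 CPM in Elf4-/--Control, and 8646 and 2865 CPM in Elf4-/--EtOH. The alcohol and control libraries did not overlap in either genotype. Its log2 fold change was 2.98 (SE 0.50) in WT mice and 2.50 (SE 0.49) in Elf4-/- mice. The latter became 1.496 without Elf4-/--EtOH replicate 1 and 3.07 without replicate 2. Gstm3 had 4.29 and 10.3 CPM in WT-Control, 251 and 523 CPM in WT-EtOH, 12.8 and 22.1 CPM in Elf4-/--Control, and 1324 and 133 CPM in Elf4-/--EtOH. The highest and the lowest alcohol library of Gstm3 were both Elf4-/--EtOH. Its log2 fold change was 5.73 (SE 1.01) in WT mice and 5.39 (SE 0.97) in Elf4-/- mice, and the latter became 2.94 without Elf4-/--EtOH replicate 1 and 6.24 without replicate 2.

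Gstm2, a mu enzyme that also acts on aminochrome, a quinone made from dopamine, differed less in WT mice than Gstm3. Gstm2 had 19.6 and 14.9 CPM in WT-Control, 69.3 and 112 CPM in WT-EtOH, 25.4 and 31.0 CPM in Elf4-/--Control, and 600 and 75.1 CPM in Elf4-/--EtOH. Elf4-/--EtOH replicate 1 stood far above the other 7 libraries, and replicate 2 lay within the WT-EtOH pair. The log2 fold change was 2.40 (SE 0.73) in WT mice and 3.58 (SE 0.75) in Elf4-/- mice, and the latter became 1.42 without replicate 1 and 4.39 without replicate 2.

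Gstp1, the pi enzyme and, in mice, one that is more abundant in male than in female liver, was the one member without a shared direction. Gstp1 had 836 and 1469 CPM in WT-Control, 1915 and 1813 CPM in WT-EtOH, 1014 and 1317 CPM in Elf4-/--Control, and 512 and 960 CPM in Elf4-/--EtOH. In WT mice both alcohol libraries were above both controls, and in Elf4-/- mice both were below them. The log2 fold change was 0.69 (SE 0.37) in WT mice and −0.66 (SE 0.37) in Elf4-/- mice. The 95% intervals, −0.12 to 1.51 and −1.48 to 0.15, each held 0. In WT mice the value was 0.34 without WT-Control replicate 1 and 1.16 without WT-Control replicate 2. Leaving out Elf4-/--EtOH replicate 1 gave −0.28 in Elf4-/- mice, and leaving out replicate 2 gave −1.20.

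Gstt3, a theta enzyme, a class that handles small halogenated compounds, was low in both genotypes on control diet. Gstt3 stood at 11.0 and 9.94 CPM in WT-Control, 39.3 and 31.0 CPM in WT-EtOH, 7.79 and 21.0 CPM in Elf4-/--Control, and 190 and 38.9 CPM in Elf4-/--EtOH. Elf4-/--EtOH replicate 1 was again highest, and replicate 2 fell between the WT-EtOH libraries. The log2 fold change was 1.74 (SE 0.66) in WT mice and 3.01 (SE 0.66) in Elf4-/- mice, and the latter became 1.46 without replicate 1 and 3.73 without replicate 2.

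**Figure D2:**
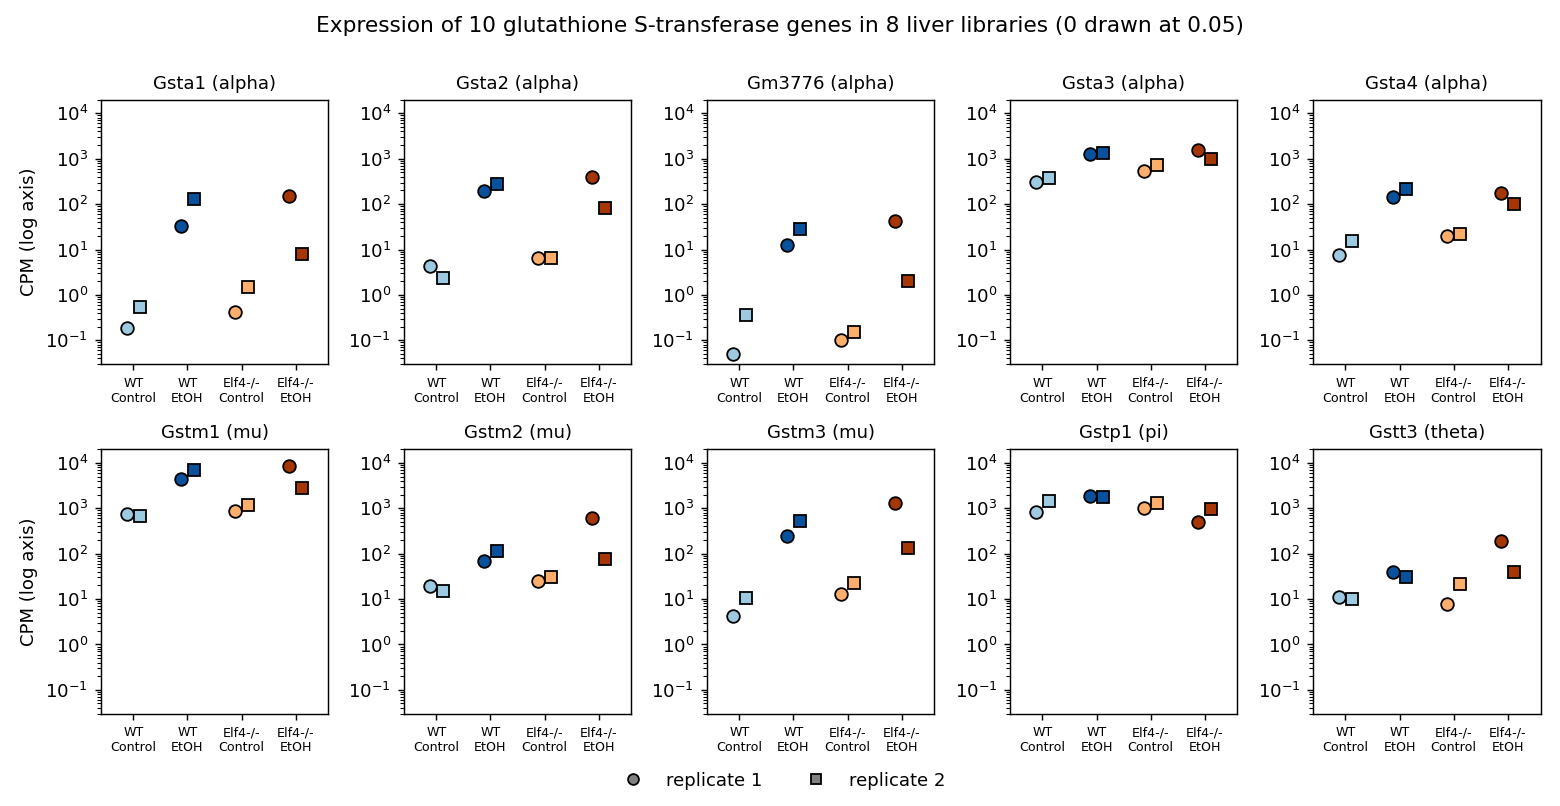
CPM on a log axis of each of the 10 genes in the 4 groups, with circles for replicate 1 and squares for replicate 2 (a value of 0 is drawn at 0.05). For 9 of the 10 genes the alcohol libraries lie above the control libraries in both genotypes, and Gstp1 lies lower under EtOH in Elf4-/- mice.

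Over the 10 genes, WT-EtOH lay above WT-Control without overlap for 10 and below it for 0, where 34.1% of all genes tested lay above and 32.7% below, and the median log2 fold change was 3.47 against 0.01 over all genes. Among Elf4-/- livers 9 lay above without overlap (25.8% of all genes) and 1, Gstp1, lay below (26.3% of all genes), with a median of 3.29 against 0.01. Leaving out Elf4-/--EtOH replicate 1 moved the median in Elf4-/- mice to 1.90, and leaving out replicate 2 moved it to 4.06. Since this contrast chose the genes, these counts support nothing further. Counts scaled by library totals alone moved the median of all genes in WT mice to 0.44, and the median of the 10 genes to 3.91. The share of counts from mitochondrially encoded genes moved with the groups, at 33.7% and 23.4% in WT-Control against 12.5% and 10.8% in WT-EtOH, and at 18.7% and 18.5% in Elf4-/--Control against 22.1% and 18.3% in Elf4-/--EtOH. Its part in the members' values was not tested gene by gene.

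**Figure D3:**
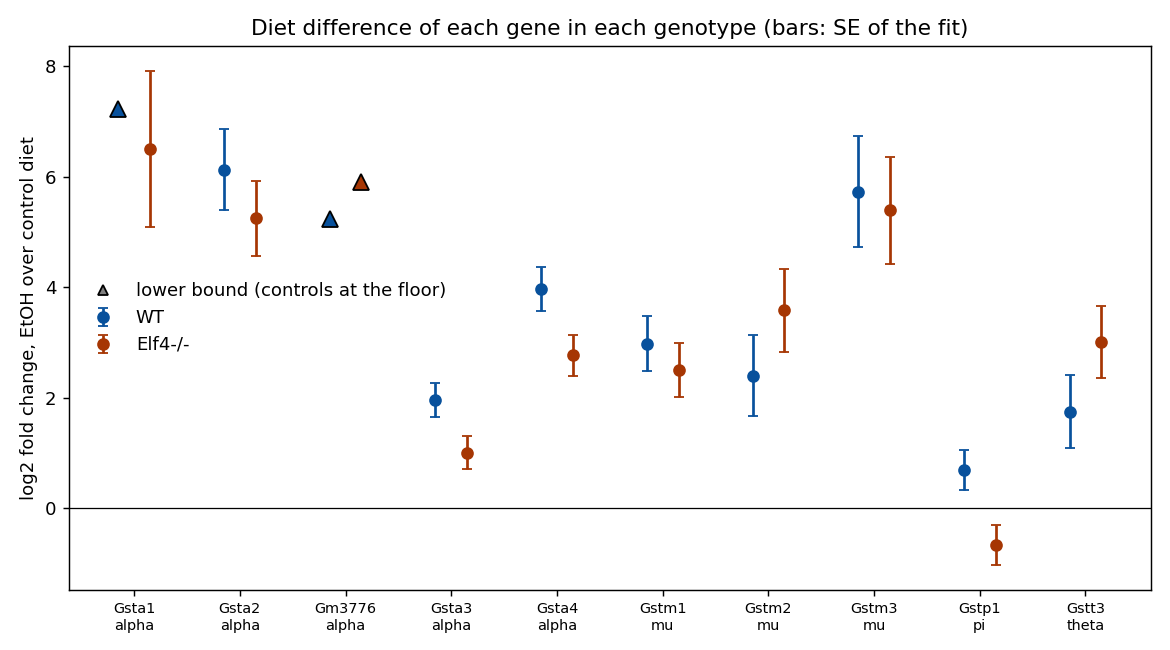
Log2 fold change of EtOH over control diet for each gene in WT (blue) and Elf4-/- (brown) mice, with bars of 1 SE. Triangles are lower bounds for groups whose controls had 3 or fewer counts per library. Gstp1 is the only gene with a value below 0, at −0.66 in Elf4-/- mice.

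The make-up of the 10 genes by class differed with diet in both genotypes. Each class total covered members only, so it does not stand for the whole class. The theta total was Gstt3 alone, at 10.5 CPM in WT-Control and 35.2 CPM in WT-EtOH. Gstt1 and Gstt2, theta genes outside the members, were more abundant. Gstt1 stood at 263 and 243 CPM in these groups, and Gstt2 at 149 and 212 CPM. Their log2 fold changes with diet were −0.12 and 0.51 in WT mice and 0.60 and 0.23 in Elf4-/- mice. On a per-length scale (RPKM), Gstp1 made up 54.5% ± 10.8 (SD, n = 2) of the summed level of the 10 genes in WT-Control and 20.2% ± 5.50 in WT-EtOH. The mu genes made up 38.6% ± 10.6 and 67.4% ± 5.37, the alpha genes 6.72% ± 0.197 and 12.2% ± 0.198, and Gstt3 0.209% ± 0.0559 and 0.156% ± 0.0616. The pi share in Elf4-/- mice was 45.9% ± 0.934 on control diet and 11.9% ± 11.4 under EtOH, the mu share 43.7% ± 0.740 and 75.4% ± 11.4, the alpha share 10.2% ± 0.0899 and 12.3% ± 0.205, and the theta share 0.218% ± 0.104 and 0.448% ± 0.172. These shares depend on the Gsta3 length, since its union exon of 4344 bases is longer than its reference transcript of 1457. By counts, which ignore length, alpha genes held 16.1% and 15.2% of the WT total with control feeding, and 19.7% and 17.6% with alcohol. Among Elf4-/- livers the alpha count share was 22.3% and 22.9% with control feeding, and 17.1% and 22.4% with alcohol. It overlapped between diets there, without the rise seen by RPKM. The log2 difference of summed CPM between diets was 2.37 for alpha, 3.05 for mu, 0.69 for pi and 1.75 for theta in WT mice. For Elf4-/- mice it was 1.42, 2.68, −0.66 and 2.99 in the same order. With mitochondrially encoded genes left out of the total these were 2.50, 3.17, 0.83 and 1.86 in WT mice and 1.42, 2.68, −0.65 and 3.01 in Elf4-/- mice. All 10 genes together took 0.163% and 0.226% of the library counts of WT mice on control diet and 0.949% and 1.34% under EtOH. Their part in Elf4-/- mice was 0.263% and 0.317% on control diet and 1.30% and 0.536% under EtOH.

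**Figure D4:**
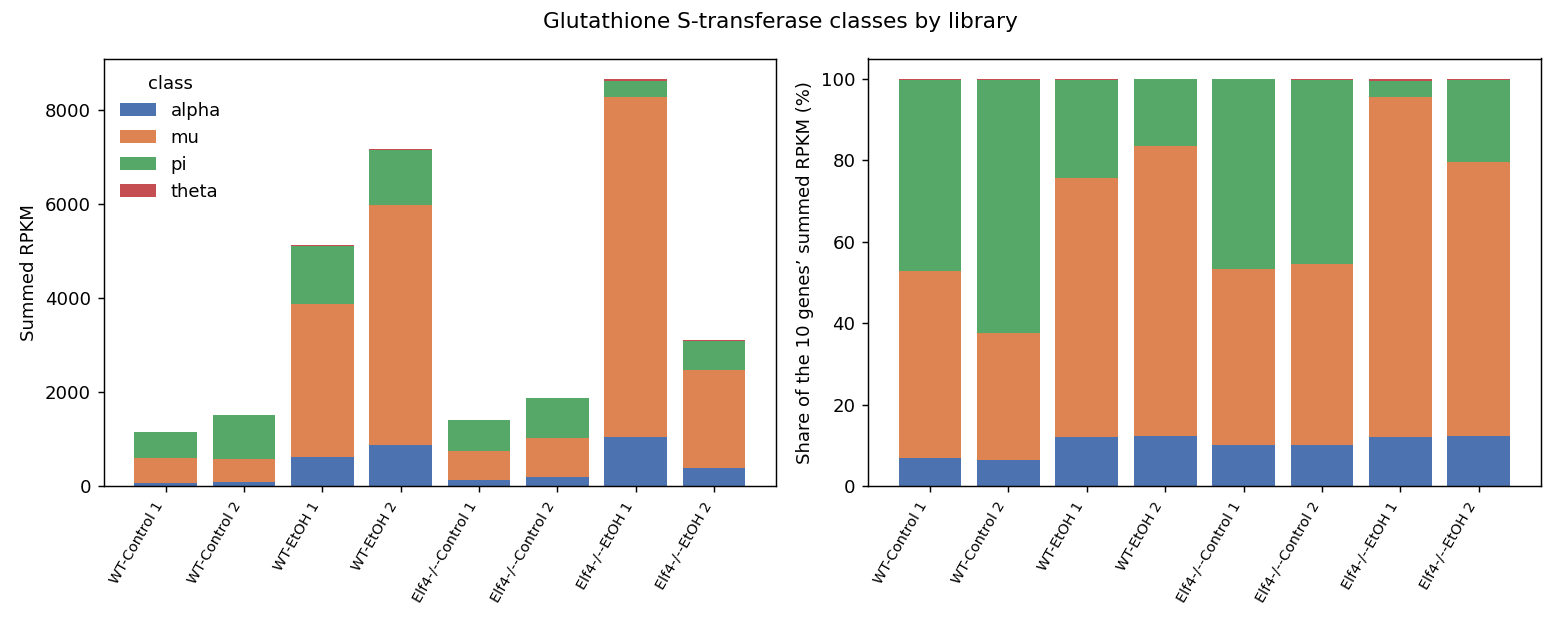
Summed RPKM of the alpha, mu, pi and theta genes among the 10 members in each library (left) and their share in percent (right). The mu class is largest in all 4 alcohol libraries, and the pi class takes 54.5% on average in WT-Control.

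Genes in this paragraph are said to overlap where their mean RPKM ± 1 SD did, a span wider than the 2 library values. Ordered by mean RPKM, the most abundant gene in WT-Control was Gstp1 (745 ± 289, SD, n = 2), followed by Gstm1 (487 ± 40.8). They overlapped by this measure, although both Gstp1 libraries lay above both Gstm1 libraries. Gsta3 followed at 77.4 ± 11.4 RPKM, apart from its neighbours. Its place here and in the other groups depends on the length used, 4344 bases of union exon against 1457 in its reference transcript. Gstm2 (10.3 ± 1.97), Gsta4 (8.98 ± 4.36), Gstm3 (5.57 ± 3.24), Gsta2 (2.84 ± 1.14) and Gstt3 (2.72 ± 0.196) each overlapped the next within 1 SD. Gsta1 (0.386 ± 0.270) and Gm3776 (0.211 ± 0.298) overlapped each other at the bottom. In WT-EtOH, Gstm1 (3837 ± 1139) stood above Gstp1 (1204 ± 46.7), and both stood apart. Gsta3 (300.4 ± 9.39), Gstm3 (295 ± 147), Gsta2 (199 ± 51.9), Gsta4 (140.4 ± 39.7), Gsta1 (86.7 ± 74.1), Gstm2 (54.1 ± 18.1) and Gm3776 (23.8 ± 12.7) formed a run in which each overlapped the next within 1 SD, and Gstt3 (9.15 ± 1.54) was lowest. Both Gstm2 libraries of this group lay above both Gm3776 libraries. In Elf4-/--Control, Gstp1 (753 ± 139) and Gstm1 (690 ± 151) again overlapped at the top, and Gsta3 (144 ± 33.5) stood apart below them. Gstm2 (16.8 ± 2.36), Gsta4 (16.3 ± 1.29) and Gstm3 (13.3 ± 5.00) overlapped, as did Gsta2 (5.47 ± 0.0257) with Gstt3 (3.75 ± 2.44). Gsta1 (0.995 ± 0.800) and Gm3776 (0.144 ± 0.0378) were lowest and apart from each other. In Elf4-/--EtOH the spread was so wide that, by this measure, each gene overlapped the next in the order Gstm1 (3907 ± 2775), Gstm3 (555 ± 642), Gstp1 (475 ± 205), Gsta3 (290.2 ± 91.9), Gsta2 (208 ± 195), Gstm2 (201 ± 221), Gsta4 (111 ± 43.4), Gsta1 (84.4 ± 108), Gstt3 (29.7 ± 27.8) and Gm3776 (25.9 ± 33.5). Both Gstm1 libraries of this group still lay above both Gstm3 libraries.

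The 2 Elf4-/--EtOH libraries differed widely for these genes. The CPM in replicate 1 divided by that in replicate 2 was 21.8 for Gm3776, 19.3 for Gsta1, 9.98 for Gstm3, 7.99 for Gstm2, 4.92 for Gsta2, 4.88 for Gstt3 and 3.02 for Gstm1. For Gsta4 it was 1.77 and for Gsta3 1.58, and Gstp1 went the other way at 0.534. The CAR target Cyp2b10, chosen after its values were seen, had 1633 counts in replicate 1 and 13 in replicate 2. The summed neutrophil markers S100a8, S100a9 and Retnlg were at 13.2 CPM in replicate 1 and at most 5.71 CPM in the other 7 libraries. Their part in the difference between these replicates was not tested.

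Under alcohol, the genotypes were compared to ask whether liver levels differed with loss of intestinal ELF4. This contrast does not separate a difference already there on control diet from a changed response, which the interaction below addresses. No member passed the threshold of 0.05 (edgeR's quasi-likelihood test, p-values adjusted over all genes by Benjamini-Hochberg), where 0.143% of all genes did, 0.121% as higher and 0.0214% as lower. DESeq2 called 1 member, where it called 182 genes in all. At an unadjusted p under 0.05 by edgeR, where 865 of 13993 genes were higher and 605 lower, 2 members were higher and 1 was lower. The lower one was Gstp1, at 1864 ± 72.3 CPM in WT-EtOH and 736 ± 317 CPM in Elf4-/--EtOH (SD, n = 2). Its log2 fold change was −1.34 (SE 0.37, 95% interval −2.17 to −0.51, edgeR adjusted p = 0.247), and by DESeq2 the adjusted p was 0.00648. Gstp1 was the only member whose genotypes did not overlap under EtOH (21.4% of all genes were lower without overlap). The values of its near-copies Gstp2 (log2 fold change −1.48, SE 0.41, edgeR adjusted p = 0.244) and Gstp-ps (−1.13) lay on the same side, and reads could be split among these 3 genes.

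Gstm2 (log2 fold change 1.89, SE 0.69, edgeR adjusted p = 0.384) and Gstt3 (1.70, SE 0.61, edgeR adjusted p = 0.373) were the members with an unadjusted p under 0.05 on the higher side, and their groups overlapped. Gsta1, Gsta2, Gm3776, Gsta3 and Gstm1 had log2 fold changes between −0.05 and 0.11. Their 95% intervals were wide, from −2.17 to 2.08 for Gsta1 and from −0.70 to 0.61 for Gsta3. Gsta4 stood at −0.34 (SE 0.34) and Gstm3 at 0.91 (SE 0.80). The sum of Gsta1, Gsta2 and Gm3776 differed by 0.04 (SE 0.63, edgeR adjusted p = 0.993).

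The genotype values under alcohol turned on which Elf4-/--EtOH library was kept. Without replicate 1, Gsta2 (−1.497, edgeR adjusted p = 0.0406) and Gm3776 (−3.37, edgeR adjusted p = 0.0322) passed the threshold as lower, and Gstm2 stood at −0.27. Without replicate 2, Gstm2 (2.71, edgeR adjusted p = 0.000667) and Gstt3 (2.43, edgeR adjusted p = 0.00746) passed as higher and Gstp1 (−1.87, edgeR adjusted p = 0.0253) as lower, while Gm3776 stood at 1.05. In these fits the remaining library is assumed to vary like those of the other groups. Gstp1 lay below 0 in both, at −0.95 without replicate 1. Kupffer cell markers moved with the genotype under alcohol. The 6 markers (Clec4f, Cd5l, Vsig4, Marco, Adgre1 and Timd4) summed to 505 to 558 CPM in WT-EtOH and 189 to 199 CPM in Elf4-/--EtOH, and 6 of 6 were lower without overlap (21.4% of all genes). Of these, 2 passed the threshold, Clec4f with a log2 fold change of −1.32 and Cd5l with −1.69, and 0 did without either WT-EtOH or either Elf4-/--Control library. The 5 endothelial markers (Stab2, Lyve1, Clec4g, Kdr and Fcgr2b) summed to 240 and 291 CPM in WT-EtOH and 183 and 123 CPM in Elf4-/--EtOH, and 5 of 5 were also lower without overlap. Of the other lists described below, 0 genes passed by edgeR under EtOH, and DESeq2 called 1 NRF2 target, 1 CAR and PXR target and 1 female-biased gene. At an unadjusted p under 0.05, 4 NRF2 targets and 3 endothelial markers were lower, and 2 CAR and PXR targets, 3 female-biased genes, 2 hepatocyte markers and 1 intestinal marker were higher, while 2 male-biased genes were higher and 1 was lower. The directions turned on the Elf4-/--EtOH library kept. Without replicate 1, 3 CAR and PXR targets and 1 female-biased gene passed as lower (list medians −0.78 and −0.76), and without replicate 2, 2 and 2 passed as higher (0.54 and 1.62). Male-biased genes had a median of 0.62 without replicate 1, with 1 higher, and −1.12 without replicate 2, with 1 higher and 3 lower. NRF2 targets passed as lower in both, 2 without replicate 1 and 1 without replicate 2. The part of these cells in the Gstp1 value was not tested.

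On control diet, 0 of 10 members passed the threshold between genotypes by edgeR and 0 by DESeq2, where edgeR called 0.0143% of all genes, 0.00715% in each direction. At an unadjusted p under 0.05, where 612 of 13993 genes were higher and 411 lower, 2 members were higher. They were Gsta3 (log2 fold change 0.90, SE 0.30, edgeR adjusted p = 0.519) and Gsta4 (0.86, SE 0.38, edgeR adjusted p = 0.683). For 6 members, Gsta2, Gsta3, Gsta4, Gstm1, Gstm2 and Gstm3, both Elf4-/--Control libraries lay above both WT-Control libraries, which 20% of all genes did (18.5% were lower without overlap). Gsta3 stood at 336 ± 49.4 CPM in WT-Control and 627 ± 145 CPM in Elf4-/--Control (SD, n = 2). Gstp1 differed by 0.02 (SE 0.36, 95% interval −0.80 to 0.83). Gsta1 and Gm3776 were at or near the floor in these 4 libraries. The endothelial markers summed to 46.4 and 92.5 CPM in WT-Control and to 134 and 137 CPM in Elf4-/--Control, and the stellate markers to 25.8 and 64.1 CPM and to 77.7 and 112 CPM. Their part in these values was not tested.

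The interaction asked whether the diet difference itself differed between genotypes. It was tested for the 8 members other than Gsta1 and Gm3776, and 0 of 8 passed the threshold by edgeR or DESeq2, as did 0% of all genes by edgeR. At an unadjusted p under 0.05, where 691 of 13993 genes were higher and 720 lower, 3 members were lower. These were Gstp1 (log2 difference −1.36, SE 0.52, edgeR adjusted p = 0.424), Gsta4 (−1.20, SE 0.51, edgeR adjusted p = 0.477) and Gsta3 (−0.95, SE 0.42, edgeR adjusted p = 0.487). Without Elf4-/--EtOH replicate 1, Gsta2 passed the threshold (−2.45, edgeR adjusted p = 0.0435), and without replicate 2, Gstm2 did (2.004, edgeR adjusted p = 0.0447). For Gstm2 the value was −0.98 without replicate 1. Markers of other liver cells lay on the lower side of the interaction as well. The values of 6 of 6 Kupffer markers (median −1.39), 5 of 5 endothelial markers (median −1.95) and 5 of 6 stellate markers (median −1.24) were below 0. Of these markers 0 passed by edgeR, with 5, 4 and 1 lower at an unadjusted p under 0.05, and DESeq2 called 0, 3 and 0. Their part in the values of Gstp1, Gsta3 and Gsta4 was not tested.

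**Figure D5:**
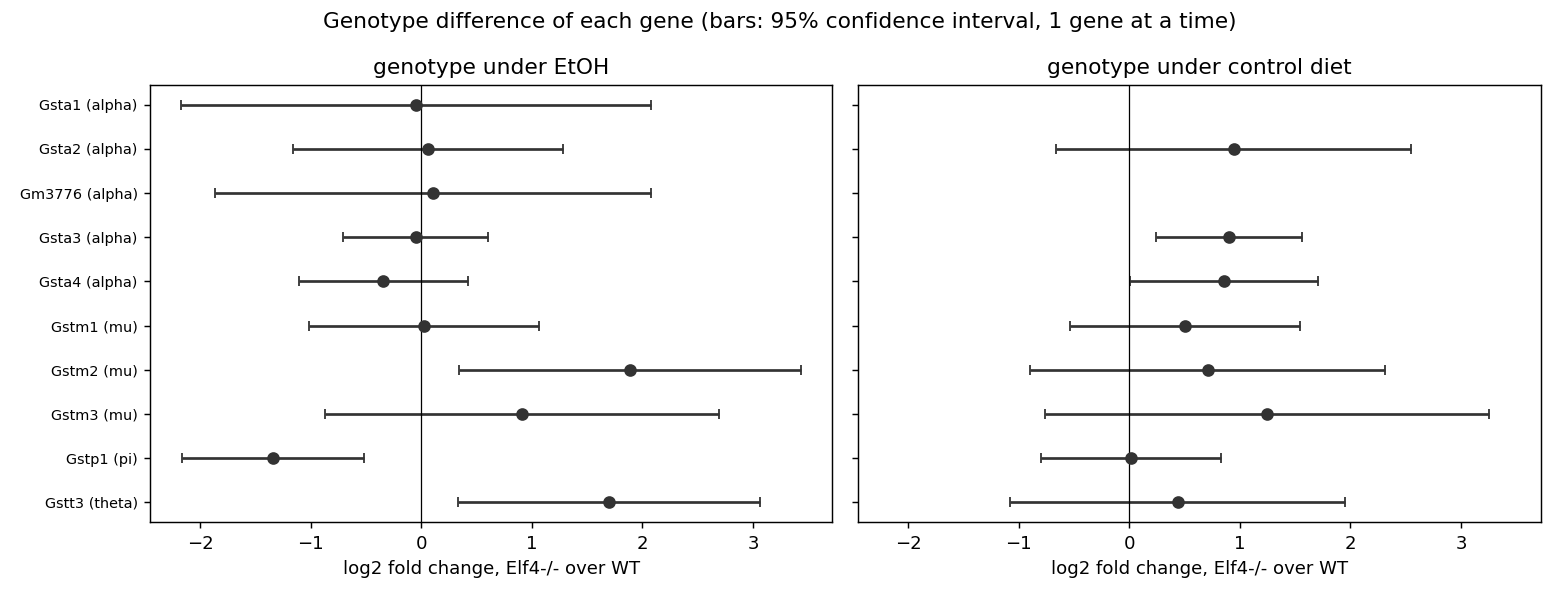
Log2 fold change of Elf4-/- over WT for each gene under EtOH (left) and on control diet (right), with 95% confidence intervals for 1 gene at a time. Gsta1 and Gm3776 are left out on control diet because their counts were at or near the floor. Under EtOH the intervals of Gstm2, Gstt3 and Gstp1 do not hold 0.

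The rest of the family is described beside the members. These genes are what remained after the members were taken with earlier results known, so their values are not independent of that choice. Of 19 further glutathione S-transferase genes listed, 16 were in the table and 14 were tested. In WT mice 3 rose and 1 fell (21.6% of all genes passed, 10.8% as higher and 10.8% as lower), and without WT-EtOH replicate 2 the number that rose was 1. Gstm4, a mu enzyme beside Gstm1, rose by 3.31 (SE 0.67, edgeR adjusted p = 0.00933), Mgst3, a microsomal enzyme, by 2.08 (SE 0.39, edgeR adjusted p = 0.00675) and Gsto1, an omega enzyme, by 1.24 (SE 0.20, edgeR adjusted p = 0.00387) on the log2 scale. Gstp3, a pi gene, fell by 1.27 (SE 0.25, edgeR adjusted p = 0.00854). In Elf4-/- mice 2 rose (2.89% of all genes passed, 1.71% as higher and 1.18% as lower), Gstm4 by 3.36 (SE 0.66, edgeR adjusted p = 0.0309) and Mgst3 by 1.64 (SE 0.37, edgeR adjusted p = 0.0492), and 0 fell. This count was 0 to 4 when 1 library was left out, with 4 without Elf4-/--EtOH replicate 2, 1 without replicate 1 or without either WT-EtOH library, and 0 without any 1 of the 4 control libraries. The median of the 14 was 0.34 in WT mice and 0.48 in Elf4-/- mice, against 0.01 over all genes in each. None of the 14 passed in a genotype contrast or in the interaction by edgeR or DESeq2. At an unadjusted p under 0.05, 4 were higher and 1 lower under EtOH, and 1 was higher in each of the other 2 tests. Counts of all genes at that threshold are given with each contrast above. Without Elf4-/--EtOH replicate 2, 2 of the 14 passed as higher under EtOH. The pseudogene Gstm2-ps1, chosen after its values were seen and sharing 50-base windows with Gstm1 and Gstm3, rose by 3.83 in WT mice and 3.37 in Elf4-/- mice.

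Genes that supply glutathione and reduce peroxides rose in part with alcohol. Over all genes, 10.8% passed as higher and 10.8% as lower in WT mice, and 1.71% and 1.18% in Elf4-/- mice. Since 21.6% of all genes passed in WT mice and 2.89% in Elf4-/- mice, counts of the lists are not compared between genotypes. In WT mice 5 of 10 tested rose and 0 fell, led by Gpx4 (log2 fold change 1.997) and Gpx1 (1.92), both glutathione peroxidases, and Gsr (1.81), which recycles oxidised glutathione. The number was 3 without WT-Control replicate 1 or either WT-EtOH library. The glutathione synthesis genes Gclc, Gclm and Gss differed less than these 3 named genes. They stood at 372, 228 and 65.1 CPM in WT-Control and at 465, 293 and 92.7 CPM in WT-EtOH. Among Elf4-/- mice 1 of 10 rose, and 2 without Elf4-/--EtOH replicate 2 and 0 without Elf4-/--EtOH replicate 1, either Elf4-/--Control library or either WT-EtOH library. Of 6 conjugate exporters, 2 rose in WT mice. Abcc4, an efflux pump of the basolateral membrane, rose by 5.64 and Abcc5 by 1.19. Without WT-Control replicate 2 or WT-EtOH replicate 2, 1 rose. For Elf4-/- mice 1 of 6 rose, and 0 without either Elf4-/--Control library.

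Of 15 NRF2 targets, 11 rose and 0 fell in WT mice, with a median log2 fold change of 2.02. Shares over all genes were 10.8% higher and 10.8% lower in WT mice, and 1.71% and 1.18% in Elf4-/- mice. The carbonyl reductase Cbr3 was at least 34.3-fold higher, the quinone reductase Nqo1 rose by 3.80 and the epoxide hydrolase Ephx1 by 3.02. Among Elf4-/- mice 4 of 15 rose, and 0 of 15 without either Elf4-/--Control library and 8 of 15 without Elf4-/--EtOH replicate 2. In WT mice the NRF2 count was 7 without WT-Control replicate 2 or WT-EtOH replicate 2. Of 12 CAR and PXR targets, 9 rose and 0 fell in WT mice, among them Cyp2c29 (5.03) and Cyp2a5 (3.67), both cytochrome P450 enzymes, and Gadd45b (3.80), a stress gene. Among Elf4-/- mice 5 of 12 rose. The CAR and PXR count in WT mice was 5 without WT-EtOH replicate 1 or replicate 2 or without WT-Control replicate 1, and in Elf4-/- mice it was 10 without Elf4-/--EtOH replicate 2 and 0 without either Elf4-/--Control library.

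Genes with sex-biased liver expression moved with diet in these male mice. Of 14 male-biased genes, 11 fell and 0 rose in WT mice, and 8 fell and 0 rose in Elf4-/- mice. Shares over all genes were 10.8% lower and 10.8% higher in WT mice, and 1.18% lower and 1.71% higher in Elf4-/- mice. Mup7, a major urinary protein, fell by 7.27, Selenbp2 by 7.02 and Hsd3b5, a steroid dehydrogenase, by 6.93 on the log2 scale in WT mice. Of 9 female-biased genes tested, 6 rose in WT mice and 4 in Elf4-/- mice, with 0 falling in either. Cyp2b9 rose by 7.92 and Cyp2b13 was at least 56.3-fold higher in WT mice. Without WT-EtOH replicate 2, 5 male-biased genes fell in WT mice. Without WT-Control replicate 2, 2 female-biased genes rose, and without WT-Control replicate 1, 3 did. For Elf4-/- mice, the male-biased genes that fell numbered 3 and 1 without Elf4-/--Control replicate 1 and 2, and 5 without either WT-EtOH library. The female-biased genes that rose numbered 1 without either Elf4-/--Control library and 9 without Elf4-/--EtOH replicate 2.

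Markers of other liver cells moved with diet beside the members. Over all genes, 10.8% passed as higher and 10.8% as lower in WT mice, and 1.71% and 1.18% in Elf4-/- mice. At an unadjusted p under 0.05, 2525 of 13993 genes were higher and 2565 lower in WT mice, and 1524 and 1442 in Elf4-/- mice. In WT mice 6 of 6 Kupffer, 5 of 5 endothelial and 4 of 6 stellate markers rose, among them Marco (4.65), Lyve1 (3.42) and Dcn (3.06). The Kupffer sum was 151 and 199 CPM in WT-Control and 505 to 558 CPM in WT-EtOH, the endothelial sum 46.4 and 92.5 against 240 and 291 CPM, and the stellate sum 25.8 and 64.1 against 226 and 297 CPM. The number of endothelial markers that rose was 3 without WT-Control replicate 2 or WT-EtOH replicate 1 and 2 without WT-EtOH replicate 2, and that of stellate markers was 2 without WT-Control replicate 2 or WT-EtOH replicate 2. Among Elf4-/- mice 1 of 6 Kupffer markers rose, and 0 of 5 endothelial and 0 of 6 stellate markers did (0 and 2 at an unadjusted p under 0.05, and 0 and 2 by DESeq2). Without Elf4-/--EtOH replicate 2, 1 endothelial, 3 stellate and 3 neutrophil markers rose there, and without Elf4-/--EtOH replicate 1 or either Elf4-/--Control library 0 Kupffer markers did. Of 7 hepatocyte markers 1 fell in WT mice (Apoa1 by 2.34, with 2 without WT-EtOH replicate 1 and 0 without replicate 2) and 0 in Elf4-/- mice. Among tested biliary (5), neutrophil (3), intestinal epithelial (3) and pancreatic acinar (1) markers, 0 passed in either diet contrast by edgeR or DESeq2, with 1 biliary gene higher and 2 lower, 1 intestinal gene lower in WT mice, and 3 neutrophil genes higher and 1 acinar gene lower in Elf4-/- mice at an unadjusted p under 0.05. The summed sets ranged over 67.6 to 182, 0.922 to 13.2, 165 to 256 and 2.75 to 9.10 CPM. The part of these cells in the members' values was not tested.

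Across the 8 libraries, 9 of the members varied together and Gstp1 did not. Pearson correlations of log2 CPM among the 9 others ranged from 0.80 (Gsta4 with Gstt3) to 0.99 (Gsta2 with Gstm1). Those of Gstp1 ranged from −0.41 with Gstm2 to 0.09 with Gsta4. These are descriptions over 8 libraries that share the diet contrast. Among 9373 genes whose mean count was 50 or more, the patterns most like Gsta1 were those of Gm20528 (r = 0.99), Gbe1 (0.99), the glycogen branching enzyme, and Ftl1 (0.99), the ferritin light chain. For Gstm1 they were Gm20528, Tmem33 and Entpd5 (0.99 each). For Gstp1 they were Ube2s, Gnl1 and Nop53 (0.96 each), and for Gstt3 Pex7 (0.98), Lamp2 (0.98) and Cyp2c50 (0.97).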

How the data were processed

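RNA was isolated from liver with Trizol and sequenced as paired reads of 150 bases on an Illumina HiSeq instrument. Per the study's methods and the submitters' processing notes, the authors mapped reads to mm10 with HISAT2, handled alignments with SAMtools, counted reads per gene with HTSeq and tested them with DESeq2. Versions, the annotation, the strand setting and the treatment of reads with several possible genes are not given in the sources used here. The authors deposited raw counts per gene symbol, 1 column per library, and all 8 columns were used. The table held 19267 genes, and 968 blank lines were left out. Without a known strand setting, antisense reads cannot be told apart.

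Genes were filtered with filterByExpr by group, leaving 13993. One model of 4 groups was fitted in edgeR 4.0.16 (R 4.3.3) with TMM scaling, the quasi-likelihood test and Benjamini-Hochberg adjustment over all genes tested, with a threshold of 0.05. CPM are counts per 1000000 of the TMM-scaled library total, and RPKM also divide by the union exon length in GENCODE M21, which matched 97.4% of symbols. Log2 CPM used a prior count of 2. Bounds were computed against 3 counts per library, and bounds and depth cover counting error only, since PCR copies were not separated. On simulated data, 11% of genes changed 2-fold, 96% changed 4-fold and 99.5% changed 8-fold were recovered for genotype under EtOH, on 13595, 13569 and 13611 genes. For genotype on control diet the shares were 18.5%, 95.5% and 100%, on 13552, 13570 and 13577 genes. The simulation gave every gene in every group the same coefficient of variation, 22.7%, and changed only better expressed genes. The real Elf4-/--EtOH replicates differed more (standard deviation 0.68 of the log2 difference), so these shares do not apply to members with a wide spread.

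The members and gene lists (further glutathione S-transferases, glutathione supply, conjugate export, NRF2 targets, CAR and PXR targets, male-biased and female-biased liver genes, and markers of 8 cell types) were chosen with earlier results of these data known. Named were all members, every further glutathione S-transferase past the threshold, up to 3 genes per other list with the largest change past the threshold in WT mice, and the 3 genes most like the first member of each class. Some genes that this rule names are not reported here. Alternatives were DESeq2 1.42.0, DESeq2 size factors, library totals alone, totals without mitochondrially encoded genes (class differences only), no filter, a mean of at least 10 counts, only the 4 libraries compared, a replicate block, summed alpha copies and leaving out each library. Counts of the lists without each library, and a block with crossed numbers, were added after seeing the data. Sequences came from GENCODE M21 and RefSeq (GRCm38.p6) and were compared with Biopython 1.88 under Python 3.11.15.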

Additional observations from a re-analysis of the deposited data

Results flagged for a closer look

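The diet difference of Gstp1 drew attention because the groups moved apart in opposite directions. Both WT-EtOH libraries lay above both WT-Control libraries, and both Elf4-/--EtOH libraries lay below both Elf4-/--Control libraries. The difference between the 2 diet differences was −1.36 on the log2 scale (SE 0.52) and did not pass the threshold (edgeR adjusted p = 0.424, and 0.169 by DESeq2). Without 1 library it ranged from −1.89 to −0.97. The Kupffer and endothelial markers had medians of −1.39 and −1.95 in the same test, and their part in the Gstp1 value was not tested.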

How the results depend on the processing

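Depth of 6171051 to 9157362 counts and 2 libraries per group limit these results, since most 2-fold changes would be missed. Genes called between genotypes under EtOH numbered 20, against 50 without the filter, 182 by DESeq2 and 0 with only the 4 libraries compared, and 0 to 366 when 1 library was left out. The number of members called was 0, with 1 by DESeq2 (Gstp1, −1.34) and 0 to 3 without 1 library. On control diet the count was 2, against 5 with library totals, 14 without the filter, 78 by DESeq2 and 22 with the 4 libraries, and 0 to 53 without 1 library. For the interaction it was 0, against 7 without the filter and 107 by DESeq2, and 0 to 139 without 1 library, with 0 to 1 members. The cause of these differences was not tested, except that fewer libraries were fitted where some were left out. For diet in WT mice, 3025 genes were called, and 626 to 4023 without 1 library. Further glutathione S-transferases numbered 4, against 7 with library totals and 2 to 5 without 1 library. The member median of 3.47 became 3.91 with library totals and 2.69 with the alpha copies summed, and 3.13 to 3.74 without 1 library. Class differences in WT mice with library totals were 2.80 for alpha, 3.49 for mu, 1.11 for pi and 2.18 for theta, and without 1 library they ranged over 2.22 to 2.54, 2.69 to 3.33, 0.34 to 1.16 and 1.57 to 1.91. For diet in Elf4-/- mice, 404 genes were called, against 811 by DESeq2 and 40 with the 4 libraries, and 9 to 1683 without 1 library. Further glutathione S-transferases numbered 2, against 1 with DESeq2 size factors and 0 with the 4 libraries, and 0 to 4 without 1 library. The member median of 3.29 ranged from 1.90 to 4.06, and the class differences over 0.84 to 1.83 for alpha, 1.53 to 3.32 for mu, −1.19 to −0.28 for pi and 1.43 to 3.87 for theta.

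Same-number deviations correlated at −0.13 to 0.11, so the replicate numbers gave no sign of pairing. This cannot exclude a shared batch or feeding pair. The study's methods describe pair-feeding, and the labels do not say which libraries it joined. With the replicate number as a block, 10 genes were called between genotypes under EtOH, and 240 genes and 0 further glutathione S-transferases for diet in Elf4-/- mice. A block with the WT-EtOH numbers crossed called 18, 418 and 2. The number of members called between genotypes was 0 in both. With the block, the genotype value under EtOH was −0.22 for Gsta2, −0.52 for Gm3776 and −0.0293 for Gstm1.

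Other values changed sign. Under EtOH with library totals, which moved the median of all genes to −0.23, Gsta2 stood at −0.21, Gm3776 at −0.18 and Gstm1 at −0.24. With TMM scaling and the alpha copies summed, the value in place of Gsta1 was 0.0413. Without 1 library, the genotype value under EtOH ranged from −3.38 to 1.29 for Gsta1, −1.497 to 0.79 for Gsta2, −3.37 to 1.05 for Gm3776, −0.41 to 0.23 for Gsta3, −0.80 to 0.0032 for Gsta4, −0.97 to 0.61 for Gstm1, −0.27 to 2.71 for Gstm2 and −1.54 to 1.77 for Gstm3. On control diet the ranges were −1.47 to 3.08 for Gm3776, −0.33 to 0.49 for Gstp1 and −0.42 to 1.01 for Gstt3, and the alpha sum stood at 0.94. For the interaction they were −4.57 to 0.0865 for Gsta1, −2.97 to 1.58 for Gm3776, −1.48 to 0.10 for Gstm1, −0.98 to 2.004 for Gstm2, −2.78 to 0.52 for Gstm3 and −0.28 to 2.12 for Gstt3, and the alpha sum stood at −0.90.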
